A study of Mus musculus with 12 samples.

Results

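The genes described here are 42 components of the unfolded protein response and of the secretory machinery of the endoplasmic reticulum (ER). They were chosen by name, as known members of this pathway, and not by their values. All 42 were measured, among 19937 genes with a probe set of 1 gene symbol on Affymetrix mouse gene arrays, and all had a mean over the 12 arrays above a background of 5.21 log2, which is the 95th percentile of 1027 olfactory receptor genes.

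The ER folds, disulfide-bonds and glycosylates proteins that are bound for the membrane or for secretion. When unfolded proteins build up there, 3 sensors in its membrane respond. IRE1 (the product of Ern1) splices the mRNA of the transcription factor Xbp1, PERK (Eif2ak3) slows translation and favours the transcription factor ATF4, and ATF6 is cleaved to release a transcription factor. Their targets are chaperones, oxidoreductases, degradation factors and the translocation and transport machinery. The pathway is known in lymphocytes above all from the B cell lineage, where Xbp1 is needed for antibody-secreting plasma cells.

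Total RNA of spleen cells from C57Bl/6 x FVB mice was measured in 4 labelled groups of 3 arrays. The labels call these resting B cells (CD43 negative, day 0), activated B cells (4 days with aCD40 and IL4), resting T cells (B220 negative, day 0) and activated T cells (4 days with aCD3, aCD28 and IL2). All cells came from the same cross, the labels name no deletion or transgene, and resting and activated cells differed also in 4 days of culture. The study's methods describe magnetic selection of resting B cells by removal of other cells, and activation on coated plates. Nothing in the labels tells whether replicates are separate mice, and the p-values hold for the spread between these arrays, which may be technical.

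Most lineage genes went against the labels in all 4 groups, and this touches every comparison below. The T cell receptor component Cd3e had group means of 10.61 and 10.07 log2 on the arrays labelled resting and activated B, against 5.93 and 6.43 on those labelled resting and activated T. Cd3d had 10.04 and 9.68 against 4.85 and 5.04. The B cell receptor component Cd79a had 8.27 and 4.50 on the arrays labelled resting and activated B, against 10.45 and 11.64 on those labelled T, and Cd79b had 9.004 and 6.64 against 11.13 and 11.96. All 9 T cell genes were called higher in labelled B than T at both states, and all 9 B cell genes lower after activation. At rest 7 of the 9 B cell genes were lower, Bank1 was not called, and Cr2 was higher in labelled B (7.83 against 6.52). The division genes Mki67 and Top2a were at 6.56 and 6.71 log2 on the arrays labelled resting B and at 6.31 and 6.25 on those labelled activated T, but at 10.58 and 10.93 on those labelled activated B and at 10.18 and 10.48 on those labelled resting T. All groups are therefore named by their labels only, each difference follows the labels, and no group could be left out as the one in doubt. The sum of 9 T cell genes was 13.20 to 13.79 log2 on the arrays labelled B and 8.24 to 9.77 on those labelled T, and that of 9 B cell genes was 10.49 to 11.92 and 8.22 to 8.62 on those labelled resting and activated B and 13.27 to 14.76 on those labelled T. Arrays of 1 group correlated with r of 0.992 to 0.995 over all genes and arrays of different groups with r of 0.903 to 0.969.

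Levels of other cell types also moved with the labels. Summed over 10 plasma cell genes on the linear scale, the level was 11.26 to 11.81 log2 on the arrays labelled resting B, 10.89 to 10.94 on activated B, 12.94 to 13.08 on resting T and 11.64 to 11.71 on activated T. The plasma cell surface protein Sdc1 stayed between group means of 5.87 and 6.12, and the plasma cell regulator Prdm1 had means of 6.21, 7.98, 7.004 and 5.45 in the same order of groups. Other genes of that list were lowest in labelled activated B, namely Jchain, the joining chain of antibodies (10.97, 4.30, 8.42 and 5.58), Pou2af1 (6.98, 5.45, 10.79 and 9.72) and Mzb1 (8.01, 5.82, 11.39 and 9.77). Lowest in labelled resting B were Irf4 (6.63, 9.63, 10.10 and 8.97), Ell2 (5.78, 6.74, 7.92 and 6.75) and Tnfrsf13b (7.13, 7.59, 8.39 and 8.99). Slamf7 was lowest in labelled activated T (8.12, 8.48, 10.46 and 7.88), and Tnfrsf17 stayed between means of 4.75 and 5.24. The sum of 7 division genes was 8.61 to 9.14, 12.88 to 12.91, 12.38 to 12.46 and 8.41 to 9.07. The sum of 11 macrophage genes was 10.59 to 11.50, 8.05 to 8.18, 9.33 to 9.64 and 10.41 to 11.12, with Csf1r at 7.71, 5.23, 5.29 and 7.30 and Mpeg1 at 8.26, 3.42, 8.37 and 8.67. The sum of 6 natural killer cell genes was highest in the labelled resting B group at 9.52 to 10.22, with Ncr1 at 7.96 and Klrb1c at 7.29. The sum of 8 granulocyte genes was 7.72 to 8.55, 8.24 to 8.25, 7.46 to 7.60 and 7.58 to 7.74, with S100a8 and S100a9 below the background in all groups (means of at most 4.25 and 4.89), but Ly6g at 7.12 in labelled activated B, against at most 4.17 elsewhere, and Mpo at 6.07 in labelled resting B, against at most 5.01. The sum of 5 erythroid genes was 7.22 to 7.90 over all arrays, with Alas2 below the background (at most 5.19) and Slc4a1 at 5.59 to 5.97. The part of these cell types, and of division, in the results below was not tested. In bulk RNA, fewer cells of a type and less RNA per cell cannot be told apart.

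The summed level of the 42 genes was highest on the arrays labelled resting T. The highest of the 4 group means fell in labelled resting T for 27 of 42 genes, in labelled activated B for 6, in labelled resting B for 5 and in labelled activated T for 4. Over all genes, these groups held the highest mean for 21.1%, 26.3%, 22.5% and 30.1%. None of the 42 had its lowest mean in labelled resting T, which held the lowest mean of 22.6% of all genes. The lowest mean fell in labelled activated T for 18 (23.5% of all genes), in resting B for 14 (22.5%) and in activated B for 10 (31.4%). Summed over the 42 genes on the linear scale, the level was 15.23 to 15.37 log2 in labelled resting T, 14.96 to 15.00 in activated B, 14.50 to 14.61 in activated T and 14.31 to 14.59 in resting B, so that only the last 2 groups overlapped. Within labelled resting B, replicate 1 had the lowest of the 3 values for 33 of the 42 genes, where it was lowest for 36.3% of all genes, and within labelled resting T, replicate 4 had the lowest for 27, against 35.7% of all genes.

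**Figure D1:**
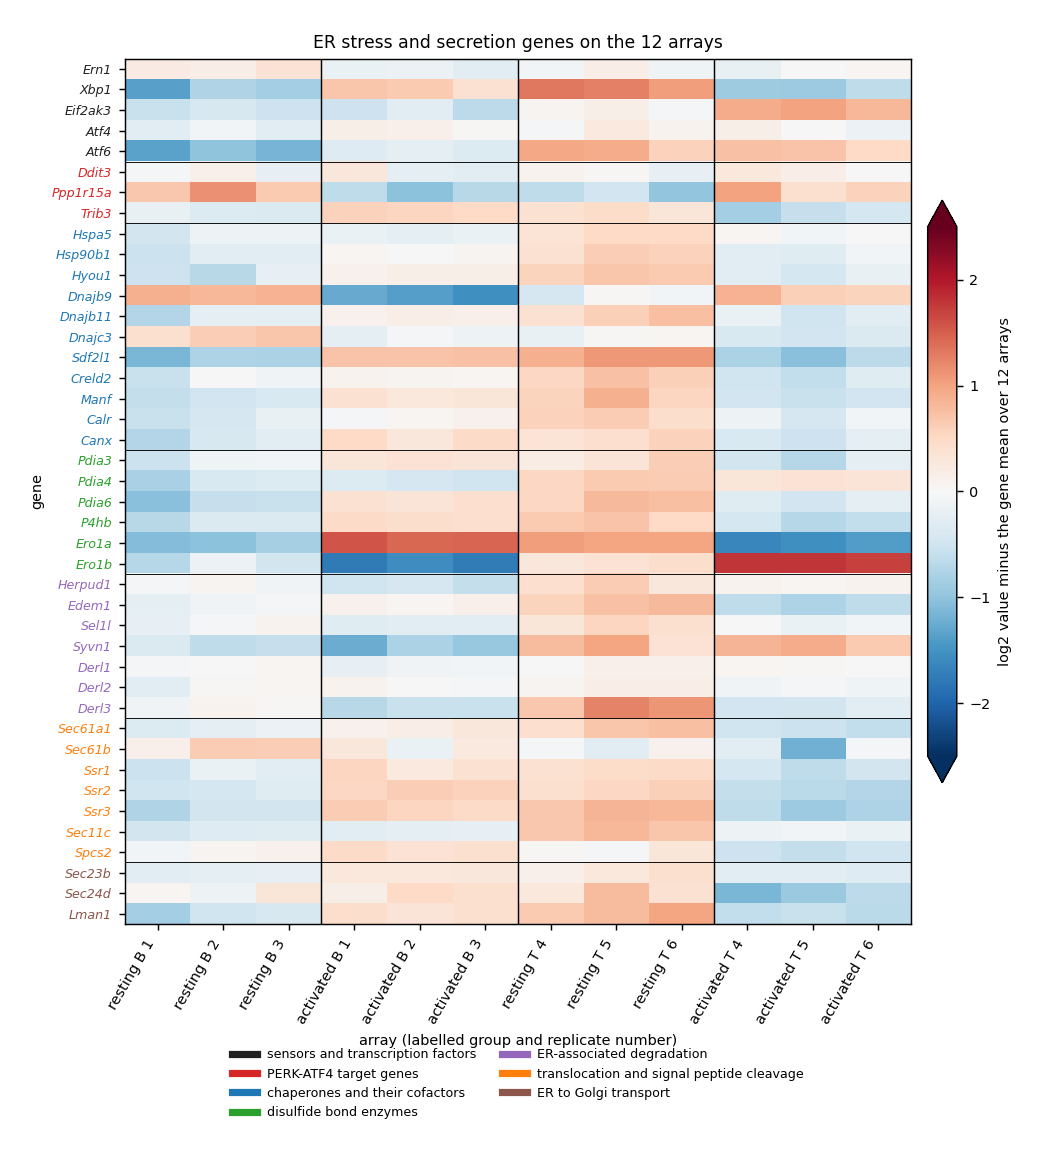
Values of the 42 genes (rows, coloured by role) on the 12 arrays (columns, by labelled group and replicate number), shown as the log2 value minus the mean of that gene over 12 arrays. Most chaperones, disulfide bond enzymes and translocation genes are above their mean in labelled activated B and resting T, while Dnajb9, Ppp1r15a and Ero1b run the other way in the labelled activation.

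Each comparison was tested with limma over all genes, and a gene was called at a Benjamini-Hochberg adjusted p under 0.05. Between labelled activated and resting B, 22 of 42 genes were called higher and 8 lower, where 19.7% and 16.7% of all genes were called higher and lower. The median log2 difference of the 42 was 0.34, against -0.02 for all genes. Without replicate 1 of labelled resting B the counts were 21 and 8. Between labelled activated and resting T, 4 were called higher and 29 lower, against 15.9% and 17.8% of all genes, with a median of -0.79 against 0.02. Those counts were also 4 and 29 without replicate 4 of labelled resting T. These comparisons share no arrays. In both together, 20 genes were higher in the first and lower in the second, a pattern of 12.9% of all genes, and 3 (Dnajb9, Ero1b and Ppp1r15a) showed the opposite, a pattern of 9.89% of all genes. Derl3, Dnajc3 and Herpud1 were lower in both, a pattern of 0.878% of all genes, and none was higher in both, against 0.868% of all genes. The difference between the labelled activations (the interaction) was called positive for 28 genes and negative for 6, against 21.9% and 20.9% of all genes.

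**Figure D2:**
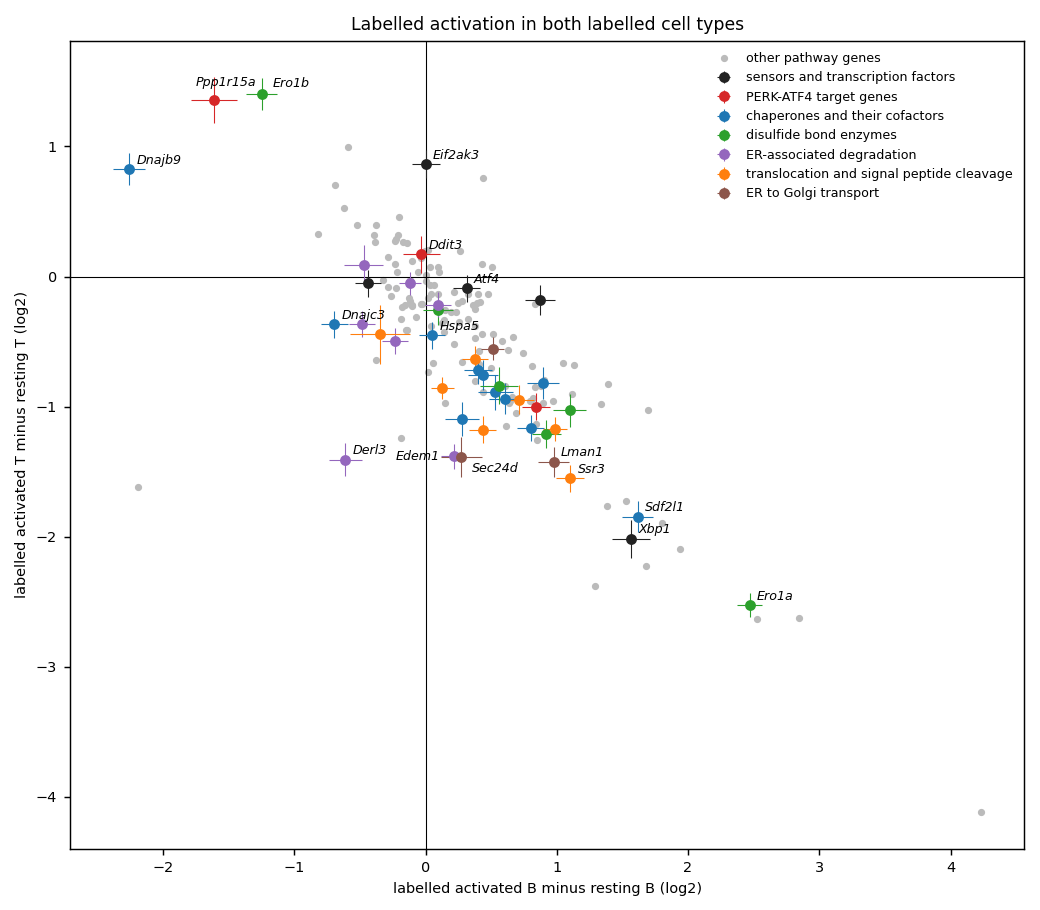
Log2 difference between labelled activated and resting B (x axis) and between labelled activated and resting T (y axis) for the 42 genes, coloured by role, with standard errors, and for 126 other pathway genes in grey. The 20 genes called higher on the x axis and lower on the y axis lie at the lower right, with Ero1a at 2.47 and -2.53 as the farthest of the 42.

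Among the sensors and transcription factors, Xbp1 followed the main pattern and the sensors did not. Xbp1 mRNA measured 8.36, 8.98 and 8.88 log2 on the arrays labelled resting B, 10.42, 10.38 and 10.11 on activated B, 11.05, 10.98 and 10.78 on resting T and 8.85, 8.82 and 9.10 on activated T. Every array labelled resting T was above every other array, activated B came next, and the remaining groups overlapped. The labelled activation difference was 1.56 ± 0.15 (SE; limma adjusted p = 2.01e-07) in B and -2.01 ± 0.15 (limma adjusted p = 1.05e-08) in T. A probe set does not tell the spliced from the unspliced Xbp1 mRNA.

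Atf6 was ordered by the labelled cell type more than by activation. It measured 6.94, 7.28 and 7.12 log2 on the arrays labelled resting B, 7.96, 8.04 and 7.94 on activated B, 9.25, 9.20 and 8.86 on resting T and 9.005, 8.99 and 8.77 on activated T. The labelled T groups overlapped and lay above both labelled B groups, which did not overlap. Labelled resting B was lower than labelled resting T by -1.99 ± 0.12 (limma adjusted p = 5.96e-10), and labelled activated B lower than activated T by -0.94 ± 0.12 (limma adjusted p = 3.99e-06). With labelled activation, Atf6 rose in B by 0.87 ± 0.12 (limma adjusted p = 1.29e-05), and in T the difference was -0.18 ± 0.12 (limma adjusted p = 0.284).

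Eif2ak3, which encodes the sensor PERK, had group means of 7.49, 7.49, 8.04 and 8.90 log2 in labelled resting B, activated B, resting T and activated T. It was 1 of only 4 of the 42 genes called higher in labelled activated T than in resting T (0.87, limma adjusted p = 4.63e-06). Ern1, which encodes the sensor IRE1, ranged between means of 6.13 and 6.57 and was called only as lower in labelled activated than in resting B (-0.44, limma adjusted p = 0.00223) and in the interaction (-0.39, limma adjusted p = 0.0392). With the replicate number as a block the adjusted p of the interaction was 0.0565, and the call was lost in 7 of the 12 fits that left out 1 array (adjusted p of up to 0.0971).

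Atf4 mRNA moved little, which bears on its RNA only, since ATF4 is known to be controlled mainly through translation. It measured 8.34, 8.56 and 8.37 log2 on the arrays labelled resting B, 8.78, 8.77 and 8.66 on activated B, 8.60, 8.87 and 8.73 on resting T and 8.79, 8.65 and 8.49 on activated T. Labelled resting B lay below activated B and resting T, and activated T overlapped the other groups. The difference between labelled activated and resting B was 0.31 ± 0.10 (limma adjusted p = 0.0273), and it lost the call when any of 4 B arrays was left out, namely replicates 1 and 3 of labelled resting B and 1 and 2 of activated B (adjusted p of 0.0782 to 0.0951), and when arrays were centred on their 75th percentile (adjusted p = 0.0983) or quantile normalized (adjusted p = 0.234). The interaction of 0.40 ± 0.15 was called (limma adjusted p = 0.0381), but it was 0.22 with arrays centred on their 75th percentile (adjusted p = 0.187) and 0.17 after quantile normalization (adjusted p = 0.316). It was also not called with array weights (adjusted p = 0.0906), with the replicate number as a block (adjusted p = 0.0542) and in 8 of the 12 fits that left out 1 array (adjusted p of up to 0.102).

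The 3 targets of PERK and ATF4 went 3 ways. Ddit3, which encodes the death-promoting factor CHOP, measured 6.73, 6.90 and 6.56 log2 on the arrays labelled resting B, 7.05, 6.53 and 6.51 on activated B, 6.87, 6.81 and 6.57 on resting T and 7.04, 6.94 and 6.78 on activated T. All groups overlapped, and Ddit3 was called in no comparison. Its difference was -0.03 ± 0.14 between labelled activated and resting B (limma adjusted p = 0.899) and 0.17 ± 0.14 between labelled activated and resting T (limma adjusted p = 0.415).

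Trib3, a pseudokinase that ATF4 and CHOP induce, measured 6.53, 6.38 and 6.35 log2 on the arrays labelled resting B, 7.30, 7.26 and 7.22 on activated B, 7.10, 7.18 and 7.01 on resting T and 5.87, 6.15 and 6.28 on activated T. No groups overlapped, with activated B the highest and activated T the lowest. The lower 2 groups, labelled resting B and activated T, were close. Their difference lost its call in 9 of the 12 fits that left out 1 array (limma adjusted p of up to 0.219). It rose by 0.84 ± 0.11 with labelled activation in B (limma adjusted p = 5.55e-06) and fell in T from a mean of 7.10 to 6.10 (SE of the difference 0.11, limma adjusted p = 8.83e-07).

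Ppp1r15a, which encodes the GADD34 subunit that restores translation, ran the opposite way. It measured 7.24, 7.71 and 7.21 log2 on the arrays labelled resting B, 5.92, 5.53 and 5.87 on activated B, 5.93, 6.08 and 5.58 on resting T and 7.57, 6.95 and 7.13 on activated T. Labelled resting B and activated T overlapped at the top, and the other two overlapped at the bottom. The labelled activation difference was -1.61 ± 0.17 in B (limma adjusted p = 1.06e-06) and 1.36 ± 0.17 in T (limma adjusted p = 8.51e-06).

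**Figure D3:**
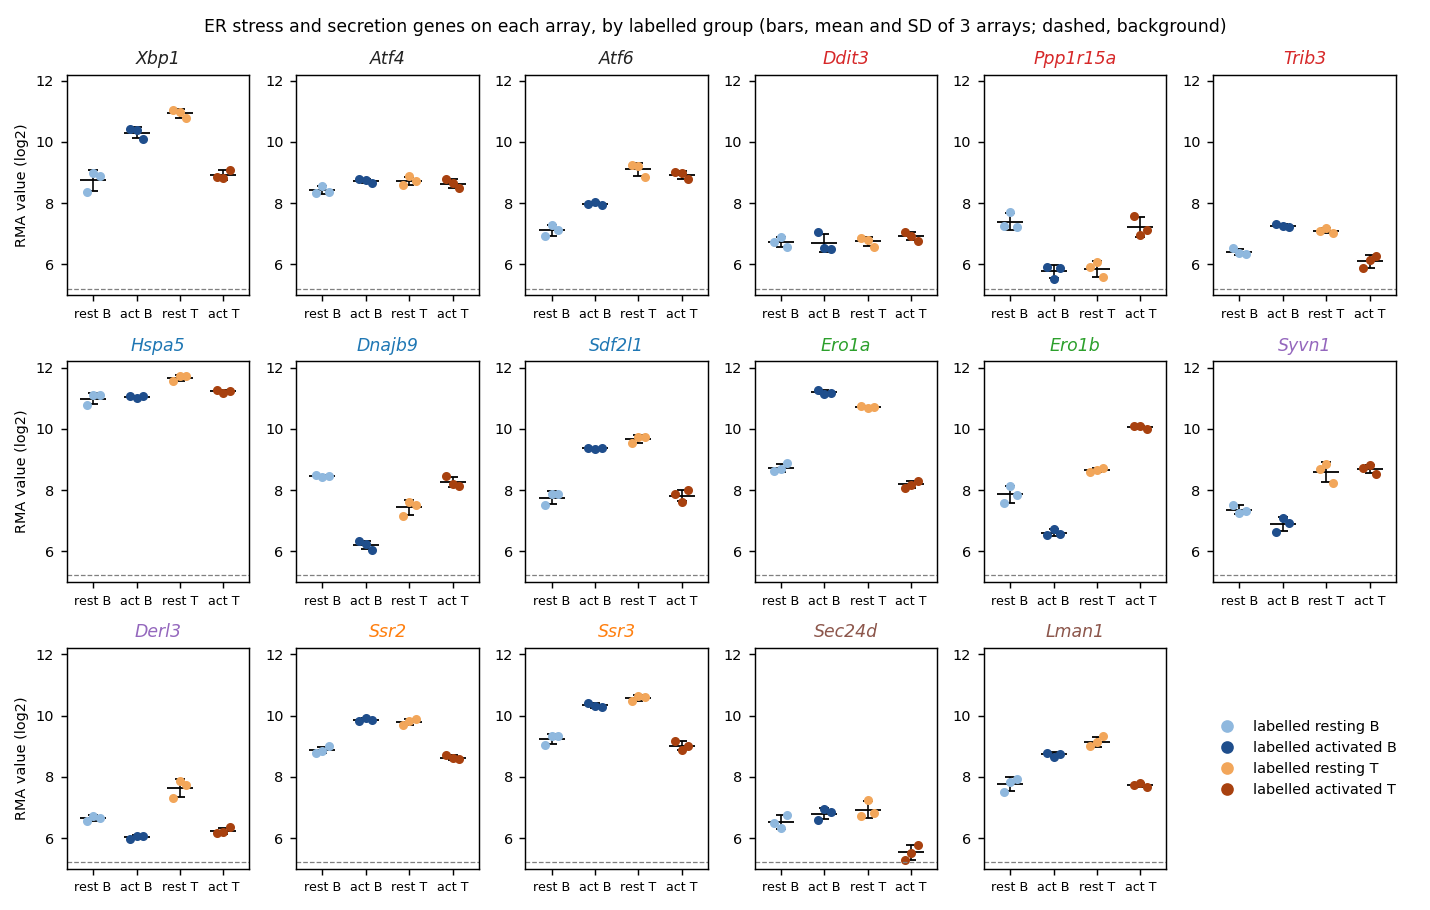
RMA values (log2) of 17 of the genes on each array, by labelled group, with the mean and SD of 3 arrays as black bars and the background of 5.21 log2 as a dashed line. Panel titles are coloured by role as in the map of all 42 genes. Levels of different genes are not comparable. Groups of Ddit3 overlap, while those of Ero1a, Ero1b and Trib3 are all apart.

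Of 11 ER chaperones and cofactors, 7 were called higher and 2 lower in labelled activated than in resting B, and 1 higher and 10 lower in labelled activated than in resting T. The shares of all genes called higher and lower were 19.7% and 16.7% in B and 15.9% and 17.8% in T. The most abundant chaperone of the ER lumen, BiP, is encoded by Hspa5. It measured 10.77, 11.10 and 11.09 log2 on the arrays labelled resting B, 11.06, 10.99 and 11.06 on activated B, 11.56, 11.73 and 11.72 on resting T and 11.27, 11.15 and 11.23 on activated T. Labelled resting T was above all other arrays, activated T came next, and the labelled B groups overlapped. The difference was 0.05 ± 0.10 between labelled activated and resting B (limma adjusted p = 0.769) and -0.45 ± 0.10 between labelled activated and resting T (limma adjusted p = 0.00169).

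Sdf2l1, an ER factor that works with BiP, had the largest differences among the chaperones that followed the main pattern. Its values were 7.52, 7.88 and 7.86 log2 on the arrays labelled resting B, 9.36, 9.36 and 9.39 on activated B, 9.53, 9.74 and 9.73 on resting T and 7.86, 7.61 and 7.99 on activated T. Labelled resting T was above activated B on every array, and resting B and activated T overlapped below. The labelled activation difference was 1.62 ± 0.12 in B, a fold of 3.06 (limma adjusted p = 9.86e-09), and -1.85 ± 0.12 in T (limma adjusted p = 2.01e-09).

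Dnajb9, which encodes the BiP cochaperone ERdj4, a repressor of IRE1, had the largest fall of the 42 genes with labelled activation in B. Its values were 8.49, 8.42 and 8.47 log2 on the arrays labelled resting B, 6.33, 6.22 and 6.05 on activated B, 7.16, 7.62 and 7.53 on resting T and 8.45, 8.19 and 8.14 on activated T. Labelled resting B and activated T overlapped at the top, resting T lay between, and activated B was below every other array. The difference was -2.26 ± 0.12 in labelled B (limma adjusted p = 2.63e-10) and 0.82 ± 0.12 in labelled T (limma adjusted p = 4.04e-05).

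With labelled activation in B the lectin chaperones Calr and Canx rose by 0.43 and 0.89, the HSP90 of the ER (Hsp90b1) by 0.40, the exchange factor Hyou1 by 0.60, the cochaperone Dnajb11 by 0.53 and the secreted factor Manf by 0.80. All 6 fell in T, by 0.72 (Hsp90b1) to 1.16 (Manf). Creld2 fell by 1.09 in T and was not called in B, at 0.28. Dnajc3, which encodes the PERK inhibitor p58IPK, was lower in both (-0.70 and -0.37) and was the only one of the 42 called higher in labelled B than in labelled T at both states.

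The disulfide bond enzymes included the genes with the widest ranges. The oxidases ERO1α and ERO1β, encoded by Ero1a (older symbol Ero1l) and Ero1b (Ero1lb), reoxidise protein disulfide isomerases, and their mRNAs ran in opposite directions. Ero1a measured 8.62, 8.68 and 8.88 log2 on the arrays labelled resting B, 11.28, 11.14 and 11.17 on activated B, 10.74, 10.69 and 10.70 on resting T and 8.08, 8.18 and 8.30 on activated T. No groups overlapped. Ero1b measured 7.59, 8.14 and 7.84 on the arrays labelled resting B, 6.53, 6.73 and 6.55 on activated B, 8.57, 8.66 and 8.73 on resting T and 10.08, 10.09 and 10.00 on activated T, again with no overlap between groups.

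With labelled activation Ero1a rose 5.54-fold in B (2.47 ± 0.10 log2, limma adjusted p = 4.44e-12) and fell by 2.53 ± 0.10 log2 in T (limma adjusted p = 4.51e-12). Ero1b changed by -1.25 ± 0.12 in B (limma adjusted p = 2.61e-07) and by 1.40 ± 0.12 in T (limma adjusted p = 7.64e-08). Between labelled activated B and activated T, Ero1a was higher by 3.01 ± 0.10 (limma adjusted p = 3.39e-13) and Ero1b lower by -3.45 ± 0.12 (limma adjusted p = 8.51e-13). Of the isomerases, Pdia3, Pdia6 and P4hb followed the main pattern, with rises of 0.56, 1.10 and 0.92 in labelled B and differences of -0.84, -1.03 and -1.21 in labelled T. Pdia4 was called in neither activation and was lower in labelled B than T at both states (-1.11 and -0.75). Its other probe set gave -1.08 and -1.47 for these.

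In ER-associated degradation, which returns misfolded proteins to the cytosol, none of 7 genes was called higher with labelled activation in either cell type. Of all genes, 19.7% in B and 15.9% in T were called higher, so few of 7 would be. In B, 3 were called lower, and in T, 4, against 16.7% and 17.8% of all genes. Syvn1, which encodes the ubiquitin ligase HRD1, measured 7.52, 7.24 and 7.30 log2 on the arrays labelled resting B, 6.64, 7.09 and 6.92 on activated B, 8.67, 8.86 and 8.24 on resting T and 8.72, 8.80 and 8.53 on activated T. The labelled T groups overlapped and lay above both labelled B groups. Labelled resting B was lower than resting T by -1.24 ± 0.15 (limma adjusted p = 3.58e-06) and labelled activated B lower than activated T by -1.80 ± 0.15 (limma adjusted p = 2.97e-08). The difference of -0.47 ± 0.15 between labelled activated and resting B (limma adjusted p = 0.019) lost the call without replicate 1 of labelled resting B (adjusted p = 0.0889) or of activated B (adjusted p = 0.11).

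Derl3 encodes a derlin of the retrotranslocation channel that is known from secretory cells. It measured 6.56, 6.73 and 6.67 log2 on the arrays labelled resting B, 5.96, 6.08 and 6.08 on activated B, 7.31, 7.88 and 7.74 on resting T and 6.17, 6.19 and 6.35 on activated T. No groups overlapped, with resting T the highest. The labelled activation difference was -0.61 ± 0.12 in B (limma adjusted p = 0.000714) and -1.41 ± 0.12 in T (limma adjusted p = 1.1e-07). Its relatives Derl1 and Derl2 were, with Ddit3, the only members called in no comparison, and their group means ranged over 0.20 and 0.22 log2. Edem1, a lectin that draws mannose-trimmed proteins into degradation, fell by 1.38 with labelled activation in T and was not called in B, at 0.21. Herpud1, a scaffold of the HRD1 complex, was lower in both (-0.49 and -0.37), and Sel1l, the adaptor of HRD1, was called in T at -0.49 and not in B at -0.23.

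The genes of translocation and signal peptide cleavage followed the main pattern, with 5 of 7 called higher and none lower in labelled activated B and none higher and 6 lower in labelled activated T. Among all genes, 19.7% were higher and 16.7% lower in B, and 15.9% higher and 17.8% lower in T. Ssr3, a subunit of the translocon-associated TRAP complex, measured 9.04, 9.34 and 9.34 log2 on the arrays labelled resting B, 10.43, 10.33 and 10.27 on activated B, 10.46, 10.64 and 10.62 on resting T and 9.16, 8.88 and 9.02 on activated T. Ssr2, of the same complex, measured 8.79, 8.86 and 8.995 on the arrays labelled resting B, 9.82, 9.92 and 9.86 on activated B, 9.70, 9.82 and 9.89 on resting T and 8.71, 8.62 and 8.57 on activated T. In both genes labelled activated B and resting T lay above the other groups, and for Ssr2 these upper groups overlapped.

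With labelled activation in B, Ssr3 rose by 1.10 ± 0.11 (limma adjusted p = 2.91e-07) and Ssr2 by 0.99 ± 0.09 (limma adjusted p = 1.62e-07). In T, Ssr3 changed by -1.55 ± 0.11 (limma adjusted p = 5.03e-09) and Ssr2 by -1.17 ± 0.09 (limma adjusted p = 2.43e-08). The TRAP subunit Ssr1, the channel subunit Sec61a1 and the signal peptidase subunit Spcs2 rose by 0.71, 0.44 and 0.38 in B and fell by 0.95, 1.18 and 0.63 in T. Sec11c, a catalytic subunit of the signal peptidase, fell by 0.86 in T and was at 0.13 in B. The channel subunit Sec61b had 3 probe sets that disagreed. The brightest was not called in either activation (-0.35 and -0.44), while another gave 0.72 in B (limma adjusted p = 2.2e-05) and -0.75 in T (limma adjusted p = 1.68e-05).

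Of the ER-to-Golgi genes, Lman1, a cargo receptor for glycoproteins, measured 7.50, 7.84 and 7.94 log2 on the arrays labelled resting B, 8.79, 8.66 and 8.75 on activated B, 8.997, 9.14 and 9.32 on resting T and 7.73, 7.79 and 7.67 on activated T. Labelled resting T was above activated B on every array, and the lower groups overlapped. The labelled activation difference was 0.97 ± 0.12 in B (limma adjusted p = 3.36e-06) and -1.42 ± 0.12 in T (limma adjusted p = 4.46e-08). Sec24d, a cargo-binding subunit of the COPII vesicle coat, measured 6.49, 6.33 and 6.75 on the arrays labelled resting B, 6.59, 6.94 and 6.85 on activated B, 6.71, 7.24 and 6.83 on resting T and 5.30, 5.52 and 5.78 on activated T. Labelled activated T was below all other arrays, and the remaining groups overlapped. Sec24d was lower in labelled activated than in resting T by -1.39 ± 0.16 (limma adjusted p = 1.8e-06), and in B the difference was 0.27 ± 0.16 (limma adjusted p = 0.209). The coat subunit Sec23b rose by 0.51 in B and fell by 0.55 in T.

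Between the labelled cell types, the direction of most genes turned with the labelled state. At rest, 3 of 42 genes were called higher in labelled B than in labelled T and 32 lower, against 16.1% and 19.0% of all genes, with a median difference of -0.82 against -0.0034. After activation, 23 were higher and 8 lower, against 21.8% and 18.9%, with a median of 0.44 against -0.03. These comparisons share no arrays with each other, but each shares its arrays with the activation comparisons. The split after activation was 21 and 14 when arrays were centred on their 75th percentile, which moved the median of all genes by -0.12, and 19 and 12 after quantile normalization. Lower in labelled B at both states were Atf6, Eif2ak3, Ero1b, Herpud1, Pdia4 and Syvn1, which is 6 of 42, against 3.22% of all genes. Higher at both was Dnajc3 alone, against 3.55% of all genes, and its difference after activation (0.27 ± 0.10, limma adjusted p = 0.0433) was not called with arrays centred on their 75th percentile (adjusted p = 0.201) or quantile normalized (adjusted p = 0.328), nor in 6 of the 12 fits that left out 1 array (adjusted p of up to 0.154).

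**Figure D4:**
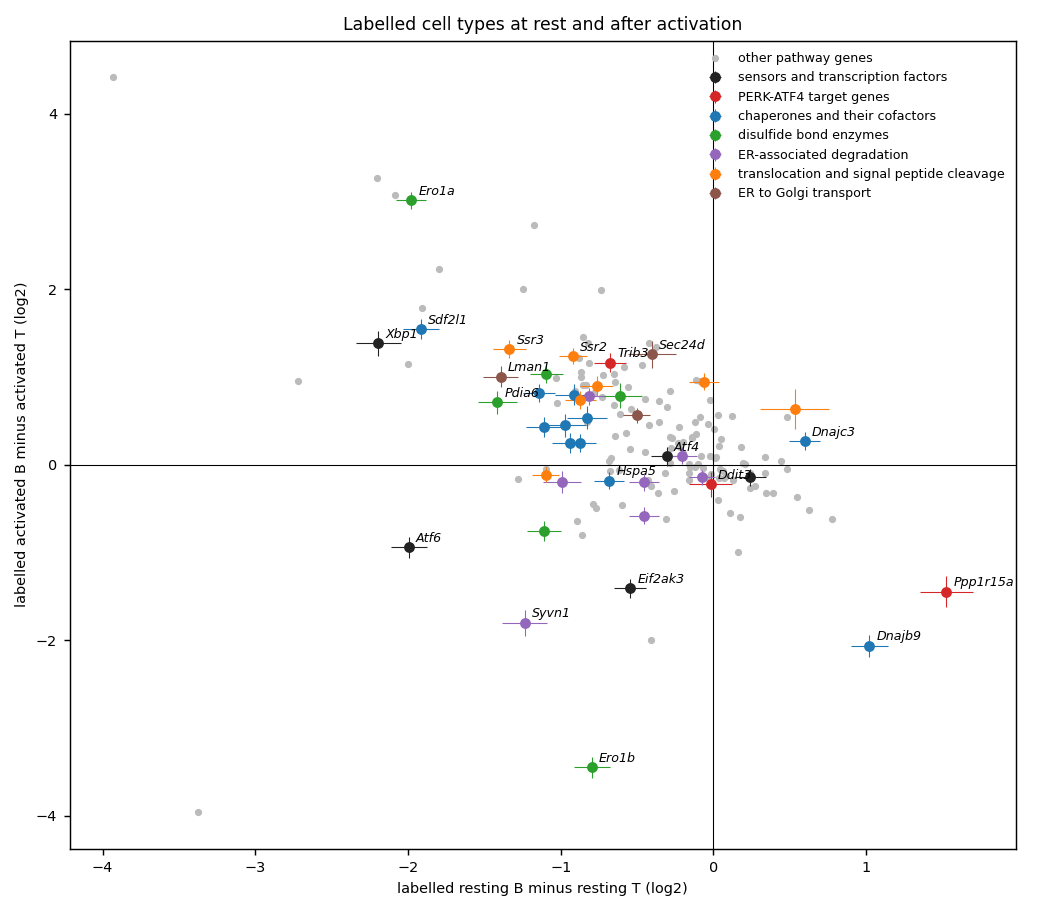
Log2 difference between labelled resting B and resting T (x axis) and between labelled activated B and activated T (y axis) for the 42 genes, coloured by role, with standard errors, and for 126 other pathway genes in grey. Most genes lie at the upper left, while Atf6, Eif2ak3, Syvn1 and Ero1b are at the lower left and Dnajb9 and Ppp1r15a at the lower right.

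The remaining comparisons crossed label and state. In labelled resting B against activated T, where 5 of the 7 division genes were not called, there were 9 higher and 6 lower of 42, against 9.68% and 8.82% of all genes, with a median of 0.03 against -0.01. Most of the chaperones (10 of 11) were not called there, but by these shares neither were most of all genes. The largest differences were those of Ero1b (-2.20), Atf6 (-1.81), Eif2ak3 (-1.41) and Syvn1 (-1.33). In labelled activated B against resting T, where 5 of the 7 division genes were called higher (median 0.44), there were 2 higher (Ero1a and Spcs2) and 21 lower, against 13.0% and 9.93%, with a median of -0.33 against -0.01. Among those lower were Xbp1 at -0.63, Hspa5 at -0.63, Dnajb9 at -1.24, Derl3 at -1.60, Syvn1 at -1.71 and Ero1b at -2.05.

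Of 126 further genes of the pathway, 60 were called higher and 11 lower in labelled activated than in resting B, against 19.7% and 16.7% of all genes, and 11 higher and 65 lower in labelled activated than in resting T, against 15.9% and 17.8%. The list of ATF4 targets and of kinases and regulators of the integrated stress response had the widest medians of these lists, with 18 of 23 higher and none lower in B (median 1.29) and none higher and 16 lower in T (median -0.84). Asns, asparagine synthetase, had group means of 5.96, 10.20, 9.90 and 5.78 log2 in labelled resting B, activated B, resting T and activated T, and Psat1, an enzyme of serine synthesis, 7.29, 10.14, 9.50 and 6.87. The mRNA of Atf4 itself spanned 0.31 log2 between group means.

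Subunits of the oligosaccharyltransferase, which attaches N-glycans, were called higher in B for 9 of 11 and lower in T for 8, with none the other way, including Ostc (0.61 and -1.15), Ddost (0.84 and -1.13) and Krtcap2 (1.13 and -0.68). Of 16 further translocation genes, 7 were higher and 1 lower in B and 1 higher and 12 lower in T, including Ssr4 (0.69 and -1.05) and Spcs3 (0.97 and -0.96). COPII and cargo genes were higher for 11 of 22 and lower for 2 in B, and higher for 3 and lower for 11 in T, including Tmed2 (0.63 and -0.97) and Tfg (0.82 and -0.93). For these 3 lists the shares of all genes were 19.7% higher and 16.7% lower in B, and 15.9% and 17.8% in T.

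Of 22 other folding genes, 9 were higher and 2 lower in B and 1 higher and 9 lower in T. Mzb1, a chaperone of B lineage cells, which is also in the plasma cell list, had means of 8.01, 5.82, 11.39 and 9.77, and Prkcsh, a subunit of glucosidase II, changed by 0.85 and -1.26. Of 18 other degradation genes, 3 were higher and 3 lower in B, near the shares of all genes, and 2 were higher and 8 lower in T, with Vcp, the segregase that extracts ER substrates, at 0.64 and -0.96 and Edem3 at -0.82 and 0.33. Of 14 regulators of the sensors, 3 were higher and 3 lower in B, also near the shares of all genes (19.7% and 16.7%). In T, 4 were higher and 1 lower, against 15.9% and 17.8% of all genes. Among these regulators were Map3k5 (0.44 and 0.75) and Mbtps1, the protease that cleaves ATF6 (-0.52 and 0.39).

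**Figure D5:**
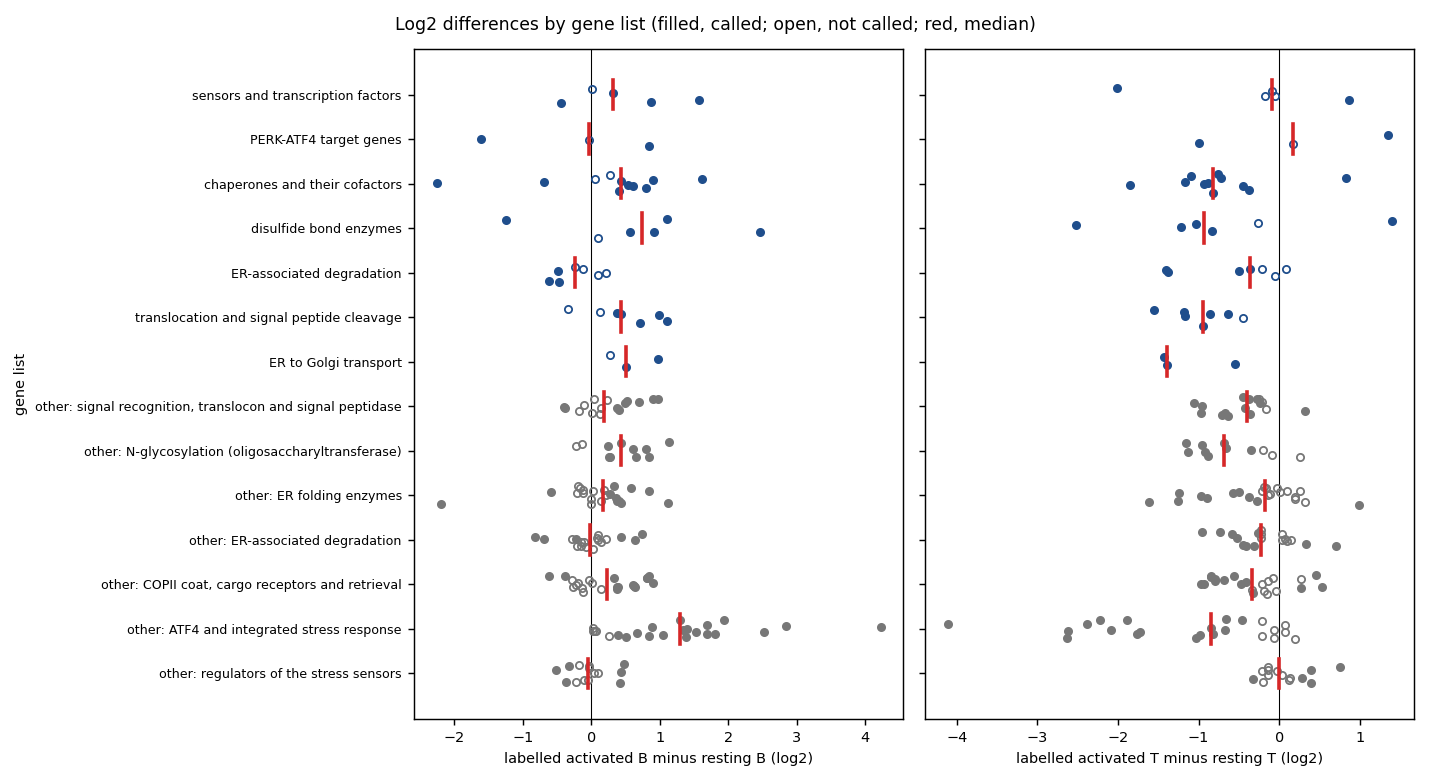
Log2 differences of single genes by role of the 42 genes (blue) and by list of other pathway genes (grey), for the labelled activation in B (left) and in T (right). Filled points were called, open points were not, and red bars are medians. The median of the list of ATF4 and integrated stress response genes was 1.29 on the left and -0.84 on the right.

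The promoters were searched for the ER stress response element (ERSE), the known binding element of ATF6 and XBP1 in chaperone genes. It was taken as CCAAT and CCACG separated by 9 bases, on either strand, within 250 bases before to 50 after the start of a RefSeq promoter (GRCm38.p6). Of 34 genes among the 42 with a promoter in that table, 10 held it (29.4%), against 37 of all 27025 genes (0.137%) and 0 of 106 further pathway genes. The 42 were chosen as known genes of the stress response, so this share describes that choice. A match is only a description, and a promoter without one may hold variants of the element. The sequences below were chosen because they share the element while their mRNAs differ across the groups. Capitals mark the parts of the element, which read CCAAT and CCACG along the gene, or CGTGG and ATTGG where it lies on the other strand.
Hspa5 (chr2:34772013-34772055, plus strand): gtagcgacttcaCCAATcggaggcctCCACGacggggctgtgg
Calr (chr8:84847063-84847105, minus strand): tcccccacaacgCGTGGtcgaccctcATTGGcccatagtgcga
Pdia6 (chr12:17266479-17266521, plus strand): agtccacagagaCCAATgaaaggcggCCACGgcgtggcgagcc
Ero1b (chr13:12565670-12565712, plus strand): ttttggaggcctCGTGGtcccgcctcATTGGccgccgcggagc
Syvn1 (chr19:6046520-6046562, plus strand): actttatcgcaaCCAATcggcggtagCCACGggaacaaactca
Derl3 (chr10:75893230-75893272, plus strand): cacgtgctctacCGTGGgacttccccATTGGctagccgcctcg

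These elements begin 44 (Syvn1) to 201 (Ero1b) bases before the start, and that of Hspa5 begins 65 bases before it. Canx, Creld2, Dnajc3 and Hsp90b1 held the element too, Hsp90b1 at 2 places. The 10 genes did not share a pattern in the labelled activation of B, where 4 were higher, 4 lower and 2 not called. Pdia6 and Calr rose there, Ero1b, Syvn1 and Derl3 fell, and Hspa5 was not called. In the labelled activation of T, 1 was higher, 8 lower and 1 not called. The 24 genes with a promoter but no match had 12 higher, 4 lower and 8 not called in B, and 3, 15 and 6 in T. Of all genes, 19.7% were higher and 16.7% lower in B, and 15.9% and 17.8% in T. The 4 of 24 lower in B and the counts higher in T were near these shares.

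Other elements were searched in the same way. The ERSE-II sequence ATTGGNCCACG, with N for any base, was found in Herpud1 and Dnajb11 (2 of 34, 5.88%, against 0.0444% of all genes and 1 of the 106 further pathway genes). In Herpud1 it stands as follows, with the element in capitals except for its free base.
Herpud1 (chr8:94386365-94386399, plus strand): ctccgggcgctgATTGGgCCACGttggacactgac
The core TGACGTG of the unfolded protein response element was in Hspa5 and Sec24d (5.88%, against 2.22% of all genes and 11.3% of the further pathway genes), and the core TGATGNAA of the element bound by ATF4 and C/EBP factors was in Trib3 and Herpud1 (5.88%, against 4.51% and 8.49%). ERSE-II shares the CCAAT and CCACG parts of ERSE, with 1 base between them and CCAAT read on the other strand.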

How the data were processed

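The deposited values are log2 levels of probe sets that the authors made with RMA, as the submitters' processing notes name it. For its version and the genome build, the sources used here give nothing. RMA subtracts background, forces a common distribution on the arrays and summarises each probe set, so that a shift of most genes 1 way cannot be seen and low values are compressed. Array medians of the deposited values still differed, at 5.50 to 5.68 log2, so their distributions were not identical. No depth exists for arrays, and 3 arrays a group limit the precision.

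Of 34760 probe sets, 21640 carried 1 gene symbol, 1321 several and 11799 none named here. The 21640 gave 19937 genes, with the probe set of the highest mean for the 954 genes with several. All 42 listed genes were found, 2 of which had been listed by an older symbol. Groups came from the labels. A model with a mean for each of 4 groups on all 12 arrays was fitted in limma 3.58.1 (R 4.3.3, lmFit and eBayes, 8 residual and 7.80 prior degrees of freedom), with 6 comparisons of groups and the interaction. All p-values are Benjamini-Hochberg adjusted, over the 19937 genes. The steps were tested on simulated arrays with known changes in few genes of labelled activated B. Of changes of 0.5 log2, 46% were recovered, against 94% of those of 1 log2 and 100% of those of 2 log2. There were 5 false calls. A gene that was not called may therefore still differ. Tables and figures used Python 3.11.15, pandas 2.3.3 and matplotlib 3.10.9. At most 0.069% of values were identical between any pair of arrays.

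Every gene of the 42 may be named. Given on every array are the 2 per role with the widest range of group means, and Xbp1, Atf4, Ddit3, Hspa5 and Derl3. Of the other lists, the 2 genes with the largest activation difference are named, and of the markers the first 2. Cr2, Bank1, Ly6g, Mpo and Krtcap2, and the plasma cell markers after the first 2, were added after their values were seen. The genes and lists were chosen with earlier results of these data known.

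Labels number the arrays 1 to 3 in both B groups and 4 to 6 in both T groups. Arrays that share a number were compared by their deviations from the group means, over 12170 genes above background. Correlations (r) were -0.059, 0.056 and 0.252 in labelled B and 0.222, 0.158 and 0.227 in labelled T. Between arrays of different number, r was at most 0.149 in labelled B and 0.0068 in labelled T. With 3 arrays a group, this does not settle which arrays were paired. Alternatives were 3 other scalings, 2 filters on dim genes, 2 treatments of several probe sets, only the groups compared, 2 other variance models, the replicate number as a block, and each array left out.

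Promoters came from RefSeq (GRCm38.p6), where 34 of the 42 genes had one.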

Additional observations from a re-analysis of the deposited data

Results flagged for a closer look

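The labelled activation differed between labelled B and labelled T for most of the 42 genes, by a test of the difference itself (limma, adjusted over 19937 genes). It was called positive, that is higher in B than in T, for 28 genes and negative for 6, against 21.9% and 20.9% of all genes. Among the genes given on every array, the positive differences in log2 were 4.99 for Ero1a, 3.58 for Xbp1, 3.46 for Sdf2l1, 2.65 for Ssr3, 2.40 for Lman1, 2.16 for Ssr2, 1.84 for Trib3, 1.66 for Sec24d, 1.05 for Atf6, 0.80 for Derl3, 0.50 for Hspa5 and 0.40 for Atf4. The negative ones were -3.08 for Dnajb9, -2.97 for Ppp1r15a, -2.65 for Ero1b and -0.56 for Syvn1. The differences of Atf4 and Syvn1 lost the call in 8 and 7 of the 12 fits that left out 1 array. Since the division genes Mki67 and Top2a were low in labelled resting B and activated T and high in the other groups, the labelled activation ran in opposite directions in these genes too, and their part in these differences was not tested.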

How the results depend on the processing

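No called difference of the 42 genes changed its direction under any alternative, but several alternatives could not change it. The filters, the trend and robust variance model, only the groups compared and the replicate block leave the log2 differences as they were. The fit of each probe set on its own was read from the brightest probe set of a gene. Another Sec61b probe set gave -0.036 between labelled resting B and activated T, where the brightest gave 0.98. Of the calls, 34 of 2274 were lost over 12 settings on all arrays, and 86 of 2412 over the 12 fits that left out 1 array. These totals include calls that could hardly be lost, as under the filters or in comparisons without the array left out. Quantile normalization alone lost 10 calls and centring on the 75th percentile 8. Counts stayed within 1.5 times the reported ones with 2 exceptions. The number of genes lower in labelled activated B than in activated T was 14 with arrays centred on their 75th percentile, against 8. The number higher in labelled activated B than in resting T was 1 with that centring and with only the groups compared, against 2, and ranged from 1 to 2 over the fits that left out 1 array. The gene that lost this call was Spcs2, without any array of labelled activated B and without replicate 4 or 5 of labelled resting T. That centring moved the share of higher calls over all genes from 54.1% to 41.9% between labelled activated and resting B, from 53.5% to 39.2% between labelled activated B and T, and from 51.2% to 38.1% in the interaction.

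Calls near the threshold were lost most often. Between labelled resting B and activated T, Trib3 and Sec61a1 each lost the call in 9 of the 12 fits that left out 1 array. Pdia6 lost it there in 7 of these fits and Derl3 in 4, so the counts of that comparison are less firm. The interaction of Syvn1 (-0.56) was not called with arrays centred on the median (adjusted p = 0.0579) or in 7 of the 12 fits that left out 1 array (up to 0.116), nor that of Hspa5 (0.50) with the 75th percentile (adjusted p = 0.0518). Between labelled activated and resting B, Calr, Pdia3 and Spcs2 were not called after quantile normalization (adjusted p of 0.109, 0.0655 and 0.146). The replicate number as a fixed block gave 27 positive and 5 negative interactions, against 28 and 6, with Atf4 and Ern1 as the calls lost. Of all 19937 genes, 4323 were positive and 4093 negative with that block. That block was fitted for both activations and the interaction and lost no other call there, and as a random block (correlation 0.0033), fitted for all comparisons, it lost none. Values near the background of 5.21 log2, such as Sec24d in labelled activated T, are compressed.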
